A study of Mus musculus with 6 samples.

Results

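Immunoglobulin variable (V) segments were taken as every gene row whose mouse symbol begins with Ighv, Igkv or Iglv, which gave 105 of the 21878 gene rows measured in 6 small intestine tumors. They comprised 55 heavy-chain segments (Ighv, chromosome 12), 47 kappa light-chain segments (Igkv, chromosome 6) and 3 lambda light-chain segments (Iglv, chromosome 16). All tumors came from Prkcif/fPrkczf/f;Villin-Cre mice, in which the floxed genes of the 2 atypical protein kinase C isoforms are the targets of a Cre recombinase driven by the villin promoter, active in intestinal epithelium. The 3 vehicle libraries (replicates 1 to 3) and the 3 PEGPH20 libraries (replicates 4 to 6) share that genotype. PEGPH20, a pegylated hyaluronidase that degrades hyaluronan, was given at 0.0375 mg/kg for 3 weeks, 2 doses a week, from 11 weeks of age, and the tumors were those of mice 14 weeks old. The comparison asks whether V segment usage in these tumors differs between the treatments. Whether the tumors of a group came from different mice is not stated, so a p-value measures only the spread between these samples, which may be technical.

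An antibody chain is encoded by a V segment that a developing B cell joins to D and J segments, or to a J segment alone in light chains, and that is then spliced to a constant gene. Each B cell clone carries its own choice of segments, so the pattern of V segments in a tissue reflects which clones are present and how much antibody mRNA they make. In the gut most of that mRNA comes from plasma cells that secrete IgA. The V region lies at the 5' end of the mRNA and the constant region at the 3' end, and the libraries were made with a kit that samples transcripts near their 3' end. In bulk tumor RNA, fewer cells of a type and less RNA per cell cannot be told apart.

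The sequences below, from GENCODE transcripts on GRCm38, are those of the 4 segments with most reads and of Iglv2, a rare near copy of Iglv1. They are 300 bases of the V exon up to its 3' end, all on the minus strand, from chr16:19085017-19085316 for Iglv1, chr16:19260401-19260700 for Iglv2, chr12:115507545-115507844 for Ighv1-64 and chr12:115208095-115208394 for Ighv1-55. The first pair is shown because reads of near-identical copies can be split or lost, and the capitals mark the 8 bases at which Iglv1 and Iglv2 differ.
Iglv1: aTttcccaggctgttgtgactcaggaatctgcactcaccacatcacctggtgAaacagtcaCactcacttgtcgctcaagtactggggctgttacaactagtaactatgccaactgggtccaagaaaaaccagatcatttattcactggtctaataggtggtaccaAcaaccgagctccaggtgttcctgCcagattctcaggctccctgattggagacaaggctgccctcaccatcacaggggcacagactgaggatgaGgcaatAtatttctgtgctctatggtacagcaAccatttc
Iglv2: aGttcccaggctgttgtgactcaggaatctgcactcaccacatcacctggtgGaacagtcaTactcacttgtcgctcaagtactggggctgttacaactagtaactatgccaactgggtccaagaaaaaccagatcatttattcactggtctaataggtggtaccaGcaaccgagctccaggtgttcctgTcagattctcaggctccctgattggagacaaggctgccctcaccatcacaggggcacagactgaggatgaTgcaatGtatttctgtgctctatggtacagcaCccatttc
In the next pair the capitals mark the 15 bases at which Ighv1-64 and Ighv1-55, members of the large Ighv1 family, differ.
Ighv1-64: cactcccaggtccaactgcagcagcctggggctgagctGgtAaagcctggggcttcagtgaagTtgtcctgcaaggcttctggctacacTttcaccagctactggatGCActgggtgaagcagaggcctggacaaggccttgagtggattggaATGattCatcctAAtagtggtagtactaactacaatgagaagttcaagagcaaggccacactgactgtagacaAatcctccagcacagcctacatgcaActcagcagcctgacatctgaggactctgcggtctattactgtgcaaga
Ighv1-55: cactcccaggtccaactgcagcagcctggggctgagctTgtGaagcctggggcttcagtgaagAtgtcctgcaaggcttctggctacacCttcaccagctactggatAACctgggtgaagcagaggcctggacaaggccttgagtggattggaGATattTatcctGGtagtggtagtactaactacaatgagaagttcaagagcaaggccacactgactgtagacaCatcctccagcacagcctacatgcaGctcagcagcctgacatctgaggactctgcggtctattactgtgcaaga
The leading heavy-chain segment, Ighv3-6 (chr12:114288152-114288451), aligned to Ighv1-64 with 54.8% identical positions. Its capitals mark the TGT of the last TGTGC, which encodes the conserved cysteine at the end of framework 3.
Ighv3-6: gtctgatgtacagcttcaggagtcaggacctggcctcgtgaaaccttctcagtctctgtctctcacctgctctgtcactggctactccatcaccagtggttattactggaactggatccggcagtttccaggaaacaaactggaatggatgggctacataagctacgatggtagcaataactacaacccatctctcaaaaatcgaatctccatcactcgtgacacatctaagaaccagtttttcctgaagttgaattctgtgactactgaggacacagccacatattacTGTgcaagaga

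Most windows of the segments printed could be told from other V segments at the read length used. Over the spliced Iglv1 transcript, 30 of 317 windows of 75 nt (9.46%) also occurred in Iglv2 and none in another V transcript, although the pair was 97.3% identical over the stretch printed. No 75 nt window was common to Ighv1-64 and Ighv1-55. Of all windows, 20.2% of those in Ighv1-55 and 2.42% of those in Ighv1-64 occurred in at least 1 other V segment, so values of Ighv1-55 are the more uncertain. The median share of windows found in no other V segment was 94.6% for 53 heavy-chain segments with a row and 94.95% for 62 without, counting segments not annotated as pseudogenes. For kappa these medians were 96.7% (46 segments) and 92.2% (54 segments).

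V segments were read at very low depth. The libraries held 2075588 to 2832876 reads assigned to genes, of which the vehicle libraries 1, 2 and 3 had 81, 108 and 111 V reads and the PEGPH20 libraries 4, 5 and 6 had 162, 110 and 123. One read was worth 0.353 to 0.482 CPM (counts per 1000000 reads assigned to genes), and a count of 0 allows up to 3 reads, or 1.06 to 1.45 CPM, counting error only. Of the 348 V segments annotated in GENCODE, 130 are pseudogenes, and 3 of these had a row. The 243 annotated segments outside the 105 have no row in the table, so no reads of theirs are analysed here. Their sequences entered the window counts, and those not annotated as pseudogenes were ranked by position with 0 reads. Of the 105 segments, 39 had a single read over all 6 libraries and 83 had 5 or fewer, while 11 had 10 or more.

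PEGPH20 replicate 5 stood apart from the other libraries, with a correlation of log2(CPM + 1) across genes of 0.937 to 0.958 with them against 0.971 to 0.984 among the other 5. Over 10 genes, epithelial markers summed to 6363 to 6726 CPM in vehicle and 5947 to 7530 CPM in PEGPH20 libraries. The list was split, with 6 genes higher and 4 lower in PEGPH20 by log2 difference. Epcam was higher in every PEGPH20 library (mean 1407 CPM in vehicle and 1768 in PEGPH20). Krt8 (1070 and 703 CPM) and Krt18 (553 and 283 CPM) were lower in every PEGPH20 library. The 7 fibroblast markers summed to 3007 to 3088 CPM in vehicle and 592 to 1630 CPM in PEGPH20 libraries. Over 10 T cell markers the sums were 20.3 to 32.3 and 37.4 to 66.7 CPM, and over 8 myeloid markers 199 to 215 and 184 to 235 CPM. Values are shares of each library, so they also move with these other cell types, whose part in the results was not tested.

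Summed over all segments, V reads took a larger share of every PEGPH20 library than of any vehicle library. The sums were 39.0, 41.3 and 42.4 CPM in vehicle replicates 1, 2 and 3 and 57.2, 45.8 and 55.98 CPM in PEGPH20 replicates 4, 5 and 6. The means were 40.9 ± 1.73 CPM and 53.0 ± 6.23 CPM (SD, n = 3 each), a log2 difference of 0.37, or 1.29-fold. The groups did not overlap, and the exact two-sided permutation test gave p = 0.1, the smallest value that 3 libraries against 3 can give. The test therefore could not reach the 0.05 threshold. The nearest libraries, vehicle replicate 3 at 42.4 CPM and PEGPH20 replicate 5 at 45.8 CPM, had 111 and 110 V reads. Counting error of these sums was not estimated.

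Most of that difference lay in the heavy-chain segments. Ighv segments summed to 20.2, 20.3 and 16.4 CPM in vehicle libraries and to 30.7, 22.5 and 26.4 CPM in PEGPH20 libraries, again without overlap (log2 difference 0.48, exact permutation p = 0.1). Kappa segments summed to 7.71, 6.12 and 4.59 CPM against 8.12, 12.5 and 5.01 CPM. The kappa groups overlapped, with PEGPH20 replicate 5 highest and PEGPH20 replicate 6 below 2 vehicle libraries (log2 difference 0.41, exact permutation p = 0.4). Lambda segments summed to 11.1, 14.9 and 21.4 CPM against 18.4, 10.8 and 24.6 CPM, with PEGPH20 replicate 5 the lowest of all libraries (log2 difference 0.16, exact permutation p = 0.8).

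**Figure D1:**
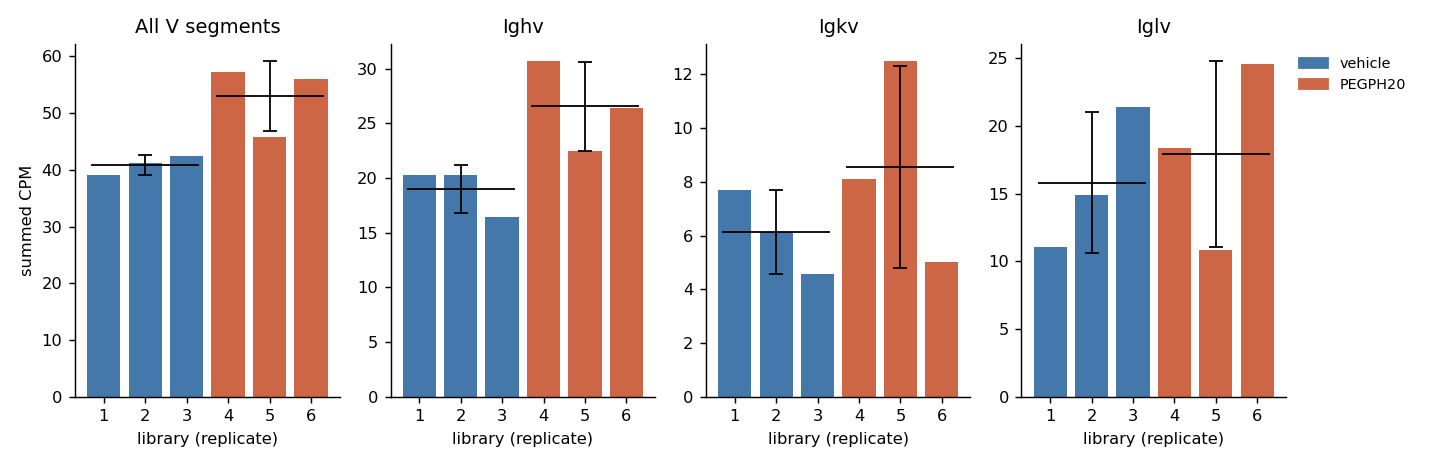
Summed CPM of V segments in each library, for all segments and for the Ighv, Igkv and Iglv loci; bars are libraries, horizontal lines are group means and whiskers are SD (n = 3). PEGPH20 libraries lie above all vehicle libraries for all segments and for Ighv, while the groups overlap for Igkv and Iglv.

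Set against the constant genes of the same chains, V reads were scarce in heavy and kappa chains and much less scarce in lambda chains. Heavy-chain segments gave 1.81, 2.73 and 2.71 reads per 1000 reads of the heavy constant genes in vehicle libraries and 3.72, 2.29 and 2.97 in PEGPH20 libraries. Kappa segments gave 1.12, 1.35 and 1.00 reads per 1000 reads of Igkc, the kappa constant gene, in vehicle and 1.21, 1.70 and 0.901 in PEGPH20 libraries. The 2 groups overlapped for kappa (difference 0.11, exact permutation p = 0.8), as they did for heavy chains. Lambda segments gave 20.5, 34.1 and 57.9 reads per 1000 reads of the lambda constant genes in vehicle and 33.9, 19.5 and 46.8 in PEGPH20 libraries. In each of the 6 libraries the lambda value was 11.5 to 57.7 times the kappa value. These are ratios of reads sampled at different distances from the 3' end, not of molecules.

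The 2 readouts of light chains therefore gave different pictures of the same tumors. Of light-chain constant reads, 6.99% to 8.78% were lambda in the 6 libraries, whereas lambda made up 59.0%, 70.9% and 82.4% of light-chain V reads in vehicle and 69.3%, 46.4% and 83.1% in PEGPH20 libraries. Mouse antibodies mostly carry kappa light chains, as the constant reads do here. The lambda share of V reads did not separate the groups (70.7% ± 11.7 in vehicle and 66.3% ± 18.5 in PEGPH20, SD, n = 3 each, exact permutation p = 0.7).

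**Figure D2:**
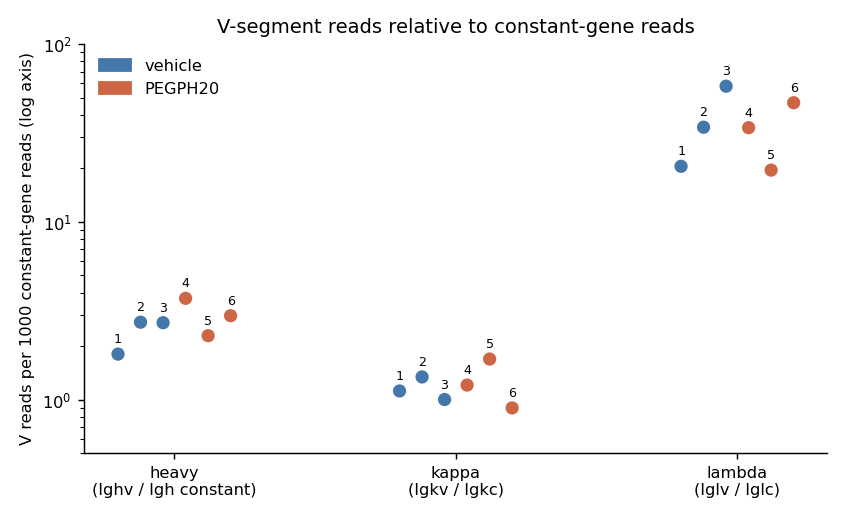
V-segment reads per 1000 reads of the constant genes of the same chain, on a log axis, with 1 point per library labelled by replicate. Lambda points lie between 19.5 and 57.9, kappa points between 0.901 and 1.70, and the groups overlap within each chain.

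Iglv1, a lambda segment at chromosome 16 from 19085017 to 19085500, was the leading V segment of every library. It had 21, 38 and 53 reads in vehicle and 50, 24 and 50 reads in PEGPH20 libraries, which is 236 of all 695 V reads. Its level was 10.1, 14.5 and 20.3 CPM in vehicle and 17.6, 10.002 and 22.8 CPM in PEGPH20 libraries. Libraries varied within each group by more than the group means differed, and the groups overlapped. Iglv1 was the only member of the 105 that passed the filter on low values. In the limma test across 11389 genes it did not pass (log2 difference 0.14, SE 0.35, adjusted p = 0.85), nor in edgeR's quasi-likelihood test (0.23, adjusted p = 0.729). In limma 0.079% of genes passed, 0.0263% higher and 0.0527% lower in PEGPH20.

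The share of V reads held by Iglv1 differed between libraries of the same group. It was 25.9% in vehicle replicate 1 (exact 95% interval 16.8% to 36.9%), 35.2% in replicate 2 (26.2% to 44.96%) and 47.7% in replicate 3 (38.2% to 57.4%). In PEGPH20 it was 30.9% in replicate 4 (23.9% to 38.6%), 21.8% in replicate 5 (14.5% to 30.7%) and 40.7% in replicate 6 (31.9% to 49.9%). The intervals cover counting error only, and reads that copy 1 molecule would make them too narrow. Those of vehicle replicates 1 and 3 do not overlap. The leading share did not separate the groups (36.3% ± 10.95 and 31.1% ± 9.42, SD, n = 3 each, exact permutation p = 0.6).

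The other lambda segments were rare. Iglv3 had 2, 1 and 3 reads in vehicle and 2, 2 and 3 reads in PEGPH20 libraries. Iglv2, near-identical to Iglv1, had 1 read in all, in PEGPH20 replicate 6. In the mouse, Iglv1 is joined to the Iglc1 or Iglc3 constant gene, and Iglv2 and Iglv3 mainly to Iglc2. Iglc1 was at 402, 311 and 269 CPM in vehicle and 394, 398 and 372 CPM in PEGPH20 libraries, and its lowest value was in the vehicle library with the highest Iglv1 level of that group. Iglc2 was at 63.1, 56.2 and 43.96 CPM in vehicle and 86.1, 85.4 and 89.7 CPM in PEGPH20 libraries, without overlap (log2 difference 0.68, limma adjusted p = 0.147), while the few reads of Iglv2 and Iglv3 could show no such difference at this depth.

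Ighv3-6, the heavy-chain segment with most reads over all libraries, had 4, 9 and 4 reads in vehicle and 21, 8 and 12 reads in PEGPH20 libraries. These were 1.93, 3.44 and 1.53 CPM against 7.41, 3.33 and 5.46 CPM. Vehicle replicate 2 was just above PEGPH20 replicate 5, and PEGPH20 replicates 4 and 6 were above every vehicle library. Its mean was 2.30 ± 1.01 CPM in vehicle and 5.40 ± 2.04 CPM in PEGPH20 (SD, n = 3 each). It did not pass the filter. In limma without the filter its log2 difference was 0.95 (SE 0.40, adjusted p = 0.331), so it was not called. Without Ighv3-6, the Ighv sum still did not overlap between groups, with a log2 difference of 0.34 (exact permutation p = 0.1).

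Ighv1-64 was low in 2 of the 3 treated tumors. It had 5, 9 and 7 reads in vehicle and 9, 1 and 1 reads in PEGPH20 libraries, or 2.41, 3.44 and 2.68 CPM against 3.18, 0.417 and 0.455 CPM. PEGPH20 replicate 4 was within the vehicle range and replicates 5 and 6 were at 1 read, below every vehicle library. In limma without the filter its log2 difference was -0.90 (SE 0.45, adjusted p = 0.43).

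Ighv1-55 had similar reads in all libraries, 5, 4 and 4 in vehicle and 6, 5 and 5 in PEGPH20, and its groups overlapped (1.82 ± 0.51 and 2.16 ± 0.10 CPM, SD, n = 3 each). At these counts the exact 95% interval of its share of V reads was wide, 2.03% to 13.8% in vehicle replicate 1. Steady use therefore cannot be told from counting error. Ighv9-3 had 2, 3 and 3 reads in vehicle and 4, 0 and 4 in PEGPH20 libraries. Ighv10-1 had 3, 1 and 1 reads in vehicle and 2, 6 and 1 in PEGPH20 libraries, so that PEGPH20 replicate 5 was highest. Ighv1-82 had 1, 0 and 2 reads in vehicle and 7, 3 and 1 in PEGPH20 libraries, with PEGPH20 replicate 4 highest. The groups overlapped in each of these segments.

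**Figure D3:**
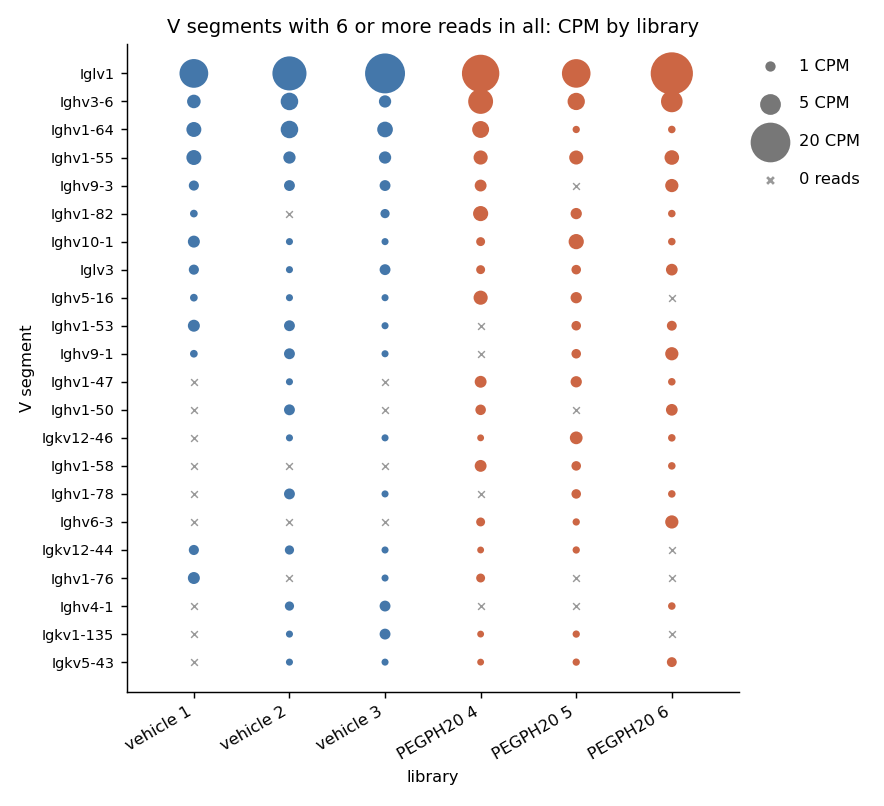
CPM of each V segment with 6 or more reads in all, by library; the area of a dot is proportional to CPM, and a cross marks 0 reads. Iglv1 leads every library, Ighv3-6 is largest in PEGPH20 replicate 4, and Ighv1-64 is at 1 read in PEGPH20 replicates 5 and 6.

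Iglv1, Ighv3-6 and Ighv1-55 were among the 5 leading segments of all 6 libraries, and Ighv1-64 among those of 4. The fifth place was tied between 2 to 5 segments in every library and was filled in alphabetical order. In PEGPH20 replicate 4 it went to Ighv1-55, which tied with Ighv5-16 at 6 reads. With 3 reads each it went to Ighv1-53, Ighv1-50 and Ighv4-1 in vehicle replicates 1, 2 and 3, and with 4 reads to Igkv12-41 in PEGPH20 replicate 5. In PEGPH20 replicate 6 the last places went to Ighv10-3 and Ighv6-3 with 4 reads each. These places therefore rest on single reads. Of Igkv12-41, 4 of 5 reads were in PEGPH20 replicate 5, and of Ighv10-3, 4 of 5 were in PEGPH20 replicate 6.

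More segments were detected in each PEGPH20 library than in any vehicle library. V reads themselves overlapped between the groups, but V reads outside Iglv1 did not. These were 60, 70 and 58 in vehicle and 112, 86 and 73 in PEGPH20 libraries. At least 1 read was found for 38, 39 and 35 segments in vehicle and for 50, 48 and 41 segments in PEGPH20 libraries, without overlap (37.3 ± 2.08 against 46.3 ± 4.73, SD, n = 3 each, exact permutation p = 0.1). When each library was thinned to 81 V reads, the lowest total, the numbers expected were 38, 31.99 and 28.4 in vehicle and 31.5, 39.8 and 30.4 in PEGPH20 libraries. The groups then overlapped, with means of 32.8 ± 4.84 and 33.9 ± 5.14 (SD, n = 3 each, exact permutation p = 0.7). Libraries with almost equal V reads still differed, since PEGPH20 replicate 5 had 48 segments from 110 reads and vehicle replicate 3 had 35 from 111. Outside Iglv1 these 2 libraries had 86 and 58 reads. Between 58.3% and 73.2% of the segments detected in a library had a single read there.

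The reads were no more concentrated in one group than in the other beyond the spread of libraries. The 5 leading segments held 46.9%, 58.3% and 63.96% of V reads in vehicle and 57.4%, 42.7% and 60.98% in PEGPH20 libraries (exact permutation p = 0.6). The inverse Simpson index, an effective number of equally used segments, was 11.3, 6.84 and 4.16 in vehicle and 8.04, 14.5 and 5.42 in PEGPH20 libraries (exact permutation p = 0.6). Its order follows the share of Iglv1, with vehicle replicate 3 most concentrated and PEGPH20 replicate 5 least. Without Iglv1 the index was 25.4, 18.7 and 21.6 in vehicle and 16.4, 28.9 and 18.4 in PEGPH20 libraries.

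**Figure D4:**
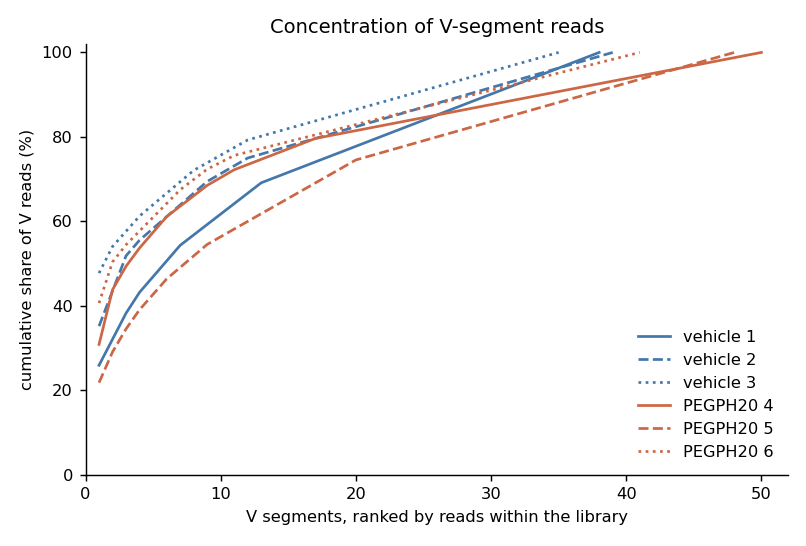
Cumulative share of V reads (percent) against V segments ranked by reads within each library; each line is 1 library. PEGPH20 replicate 5 and vehicle replicate 1 lie lowest, with 42.7% and 46.9% of reads in their 5 leading segments; the leading segment alone holds 21.8% to 47.7% of reads, highest in vehicle replicate 3.

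Few segments were detected in all 6 libraries, which at this depth few could be. Reads in all 6 libraries were found for 6 segments (Iglv1, Iglv3, Ighv3-6, Ighv1-55, Ighv1-64 and Ighv10-1), and these held 382 of the 695 V reads. Of the rest, 9 segments were detected in 5 libraries and 41 in only 1, which is 39.05% of segments against 12.9% of all gene rows. The 39 segments with a single read could appear in only 1 library, and the 83 with 5 or fewer reads could not appear in all 6. Gene rows include genes read far more deeply, so these shares cannot be compared. A pair of libraries shared 17 to 19 segments within vehicle, 21 to 26 within PEGPH20 and 15 to 24 between groups. As a share of a library's own segments that was 43.6% to 54.3%, 43.8% to 54.2% and 33.3% to 61.5%.

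Segments seen in 1 group alone were more numerous for PEGPH20. There were 34 with reads in PEGPH20 libraries alone (61 reads) and 19 with reads in vehicle libraries alone (24 reads), or 32.4% and 18.1% of segments against 7.56% and 9.01% of all gene rows. The gene rows include genes read far more deeply, which are seldom at 0 in a whole group. PEGPH20 libraries also held more V reads (mean 132 against 100 in vehicle), for which these numbers of segments were not corrected. Of the 105 segments, 61 (58.1%) had a higher mean CPM in PEGPH20, against 42.4% of all gene rows. The groups did not overlap in CPM for 5 segments higher in PEGPH20 (4.76%, against 6.34% of all gene rows) and 1 lower (0.952%, against 12.3%). Separation needs reads in all 3 libraries of a group. The 41 segments detected in 1 library and the 25 detected in 2 could not show it, so these shares cannot be compared with the background.

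The 6 segments without overlap in CPM are named because they are few, after their values were seen. Ighv1-58 had 0 reads in each vehicle library and 4, 2 and 1 in the PEGPH20 libraries, and Ighv6-3 had 0 reads in vehicle and 2, 1 and 4. Igkv3-12 had 0 reads in vehicle and 1, 2 and 1 in PEGPH20 libraries. That is 3 of 105 segments (2.86%) read in every PEGPH20 library and in no vehicle library, against 0.279% of all gene rows. The reverse pattern was found for 0 segments, against 0.375%. The limits given above for segments seen in 1 group alone, the depth of other genes and the number of V reads, hold here too. No library had more than 4 reads of any of them, where a count of 0 allows up to 3. Ighv1-47, with 0, 1 and 0 reads against 4, 3 and 1, and Ighv1-54, with 0, 1 and 0 against 2, 1 and 1, were the other segments higher in PEGPH20. Ighv1-52 was the lower one, with 1, 1 and 2 reads against 1, 0 and 0. In reads, Ighv1-47, Ighv1-54 and Ighv1-52 tied at 1 between a vehicle and a PEGPH20 library, so library size alone parted their groups.

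By family, Ighv1 held the most heavy-chain reads. It is also the largest family of the locus, with 27 of the 55 segments with a row and 54 of the 115 not annotated as pseudogenes. Its 27 segments held 172 reads, 51.0% of heavy-chain V reads, and their share ran from 53.5% to 56.6% in vehicle and was 52.9%, 51.9% and 37.9% in PEGPH20 libraries. PEGPH20 replicate 6 was thus the lowest. In CPM the family was at 11.1, 11.5 and 8.79 in vehicle and 16.2, 11.7 and 10.013 in PEGPH20 libraries, with overlap. The Ighv3 family held 59 reads, all but 1 from Ighv3-6. Ighv9 held 30 reads, 15 in each group. Ighv10 had 3, 1 and 1 reads in vehicle and 3, 6 and 5 in PEGPH20 libraries, and Ighv6 had 0 reads in vehicle and 2, 1 and 5 in PEGPH20. Ighv2 had 2, 3 and 4 reads against 2, 2 and 2 (1.21 ± 0.29 and 0.82 ± 0.10 CPM, SD, n = 3 each). Ighv2 and Ighv6 were the families in which the groups did not overlap in CPM. Of all gene rows, 6.34% were higher and 12.3% lower in PEGPH20 without overlap. Vehicle replicate 1 tied with the PEGPH20 libraries in Ighv2 reads, so library size alone parted the groups there. Of the 8 Ighv6 reads, 7 were of Ighv6-3, already named.

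Kappa reads were spread thinly over families. Igkv12 held 22 of the 108 kappa reads, with 2, 5 and 2 in vehicle and 2, 9 and 2 in PEGPH20 libraries, so that its highest value was again PEGPH20 replicate 5. Igkv4, with 26 segments not annotated as pseudogenes, held 13 reads over 7 segments, 8 in vehicle and 5 in PEGPH20. No kappa segment had more than 4 reads in any library, and Igkv12-46 led with 8 reads in all.

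Position along the heavy-chain locus was examined after the values were seen, by ranking the segments that are not annotated as pseudogenes by distance from Ighm, the IgM constant gene, and dividing them into 3 near-equal sets. The 38 segments of the middle set, 0.868 to 1.57 Mb away, held 28.6%, 25.0% and 20.9% of the reads of these segments in vehicle and 37.9%, 40.7% and 45.6% in PEGPH20 libraries, without overlap. The 38 segments farthest away, 1.604 to 2.58 Mb, held 50.2% ± 1.56 in vehicle and 38.4% ± 6.64 in PEGPH20 (SD, n = 3 each), also without overlap. For the 39 nearest segments the groups overlapped, at 24.9% ± 4.68 and 20.1% ± 2.79. Only 18 of the nearest, 16 of the middle and 19 of the farthest segments had a row, so the reads came from these. Ighv3-6 is the first segment of the middle set. Without it the middle set held on average 14.4% of reads in vehicle and 26.6% in PEGPH20, and the groups overlapped, so the separation of the middle set depends on that segment. The shares of the 3 sets are parts of 1 total, so the lower farthest set is not independent of the higher middle set. The farthest set was not recomputed without Ighv3-6. In the kappa locus the groups overlapped in all 3 sets, and the farthest, 1.92 to 3.17 Mb from Igkc, held 45.3% ± 11.4 in vehicle and 46.4% ± 9.03 in PEGPH20.

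**Figure D5:**
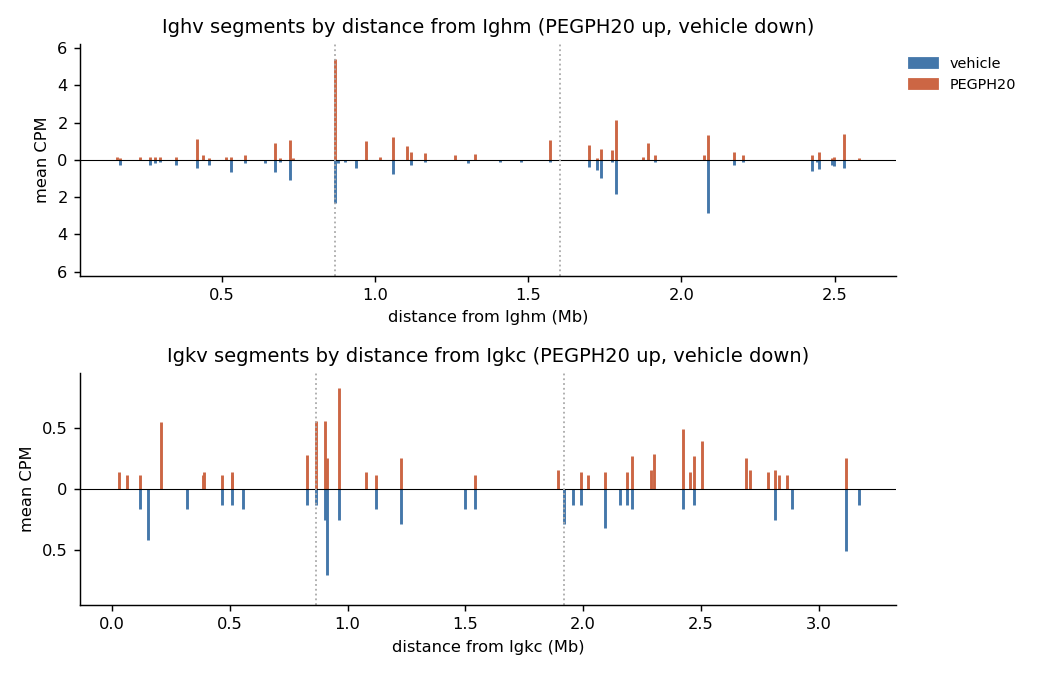
Mean CPM (n = 3 libraries per group) of each annotated Ighv and Igkv segment that is not a pseudogene, against its distance from Ighm or Igkc in Mb; PEGPH20 is drawn upwards, vehicle downwards, and dotted lines divide the segments into 3 near-equal sets. Ighv3-6, at the start of the middle set, is the tallest line in PEGPH20 (5.40 CPM), and Ighv1-64 in the farthest set is the tallest in vehicle (2.84 CPM).

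The constant genes to which V segments are spliced split by class. In limma 0 of the 9 tested passed over all genes, 5 having an unadjusted p under 0.05, which 18% of all genes tested had, and the median log2 difference was 0.24 against -0.09 over all genes tested. Calls were 0 in edgeR and limma-voom and 3 in DESeq2, which called 2.43% of all genes tested. Igha, the IgA heavy chain, was at 10614, 6906 and 5579 CPM in vehicle and 8058, 9719 and 8691 CPM in PEGPH20 libraries, and Igkc at 6870, 4547 and 4567 against 6706, 7371 and 5558 CPM. Both overlapped between groups. Of the IgG heavy chains, 3 were lower in every PEGPH20 library than in any vehicle library, as were 12.3% of all gene rows, namely Ighg2c (168 ± 23.7 against 30.3 ± 19.1 CPM, SD, n = 3 each), Ighg1 (164 ± 28.5 against 32.9 ± 17.5 CPM) and Ighg2b (186 ± 19.3 against 90.7 ± 26.6 CPM). Their limma adjusted p-values were 0.115, 0.098 and 0.143, and all 3 passed, lower, without PEGPH20 replicate 5, where 2.98% of genes passed. Ighm, the IgM heavy chain, was higher without overlap, as were 6.34% of all gene rows (2.08 ± 1.18 against 5.98 ± 1.07 CPM, SD, n = 3 each, limma adjusted p = 0.177). In all, constant genes summed to 18604, 12403 and 10993 CPM in vehicle and 15504, 17736 and 14969 CPM in PEGPH20 libraries, so the constant genes overlapped between groups where V segments did not. V reads per 1000 constant reads were 2.10, 3.33 and 3.86 against 3.69, 2.58 and 3.74, with overlap.

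Of 13 plasma cell genes tested, 10 had a difference above 0, against 40.2% of all genes tested (median log2 difference 0.54). In limma 0 passed and 4 had an unadjusted p under 0.05, against 18% of all genes tested. Calls were 0 in edgeR and limma-voom and 2 in DESeq2, which called 2.43% of all genes tested. Jchain, which links IgA and IgM units into polymers, was at 2002, 1734 and 1674 CPM in vehicle and 2868, 3389 and 2632 CPM in PEGPH20 libraries (limma adjusted p = 0.143). Xbp1, a transcription factor of secretory cells, was at 81.5 ± 11.1 and 131 ± 18.7 CPM, and Mzb1, a chaperone of B-lineage cells, at 25.0 ± 5.002 and 41.6 ± 7.13 CPM (SD, n = 3 each), with limma adjusted p-values of 0.155 and 0.172. Sdc1, the gene of the plasma cell surface protein CD138 that epithelial cells also express, was lower in every PEGPH20 library than in any vehicle library (122 ± 15.5 against 71.8 ± 42.4 CPM, log2 difference -0.99, limma adjusted p = 0.321). Pou2af1, a B-lineage coactivator, was at 19.5 ± 2.50 and 14.9 ± 4.39 CPM with overlap, and both were named after their values were seen. Without PEGPH20 replicate 5 the median was 0.33 and Jchain alone passed (limma adjusted p = 0.023), where 2.98% of all genes tested passed.

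Markers of B cells before the plasma cell stage were close to the floor. The 13 with a row summed to 22.6 to 30.2 CPM in vehicle and 25.5 to 33.5 CPM in PEGPH20 libraries, much of it from Ebf1, which other cell types also express. Ms4a1, the gene of CD20, was at or below 0.964 CPM in every library. Ebf1 was the 1 member tested, and was lower without overlap (15.5 ± 1.20 against 12.6 ± 1.08 CPM, SD, n = 3 each, limma adjusted p = 0.434). Bank1, Cd37 and Fcrla, which were not tested, were higher in PEGPH20 without overlap. Their mean CPM in vehicle and PEGPH20 was 2.14 and 4.196 for Bank1, 0.831 and 1.89 for Cd37, and 1.98 and 5.28 for Fcrla. These genes were named after their values were seen, and the groups overlapped in all other members. Of the list for germinal center reaction, V(D)J joining and class switch, 7 of 14 genes had a row and 6 were tested, 3 above and 3 below 0, with 0 passing in limma, edgeR, limma-voom or DESeq2 and 0 at an unadjusted p under 0.05 (median -0.06). Its 2 smallest p-values were those of Bcl6, the germinal center transcription factor (22.1 ± 1.25 against 26.8 ± 5.98 CPM, SD, n = 3 each), and the uracil glycosylase gene Ung (5.92 ± 2.05 against 7.69 ± 1.56 CPM), with limma adjusted p-values of 0.534 and 0.535.

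Factors that attract, retain or export antibody-secreting cells and their product were tested for 8 of 12 genes, 5 above and 3 below 0, against 40.2% of all genes tested above 0 (median 0.57). In limma 0 passed and 4 had an unadjusted p under 0.05, against 18% of all genes tested. DESeq2, which called 2.43% of all genes tested, called 1 of them, and edgeR and limma-voom 0. Pigr, the epithelial receptor that carries IgA and IgM into the lumen, was at 323, 256 and 134 CPM in vehicle and 970, 2269 and 1009 CPM in PEGPH20 libraries (log2 difference 2.54, limma adjusted p = 0.091), without overlap, and passed without PEGPH20 replicate 5 (2.14, adjusted p = 0.004). Ccl28, a chemokine for IgA plasma cells, was at 2.33 ± 1.61 and 8.15 ± 3.41 CPM, and Cxcl13, a chemokine that draws B cells to follicles, at 6.87 ± 1.00 and 2.73 ± 1.58 CPM (SD, n = 3 each). Their limma adjusted p-values were 0.183 and 0.200, and the groups did not overlap in either. Of the other lists, T cell genes had 2 tested with a median of 0.60, myeloid genes 8 with 0.07, epithelial genes 10 with 0.12 and fibroblast genes 7 with -1.28, with 0 passing in limma, edgeR or limma-voom and 1, 1, 1 and 6 at an unadjusted p under 0.05, against 18% of all genes tested. DESeq2 called 4 fibroblast genes and 0 of the others, against 2.43% of all genes tested. Without PEGPH20 replicate 5, 5 of the fibroblast genes passed, lower, where 2.98% of all genes tested passed (339 of 11389, 231 of them lower).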

How the data were processed

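The table deposited by the authors holds a signal per gene in CPM, that is, reads of the gene over all reads assigned to genes, times 1000000; this was worked out from the values. Its row of totals names no gene and was left out. The genome build, GRCm38, comes from the submitters' processing notes. How reads were aligned and counted, and whether strand or molecular identifiers were used, is not given in the sources used here, apart from identifiers being optional in the kit. Per the labels' protocols, libraries were made from 200 ng of RNA with the QuantSeq 3' forward kit and read over 75 nt.

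Reads were recovered by dividing each value by the worth of 1 read, and 100% of values came out whole within 1e-06 of a read. GENCODE release M21 gave symbols for 21786 identifiers and none for 92. The 11389 genes kept by filterByExpr on the recovered reads were fitted with limma 3.58.1, with a mean-variance trend on log2(CPM + 1), a scale that understates the change of low genes. Benjamini-Hochberg adjustment covered all of them, at a threshold of 0.05. Values per library were compared by exact two-sided permutation tests. The scripts were tested on simulated data. The members and lists were chosen with earlier results of these data known. Named segments are the 5 with most reads in each library, the 8 with the largest summed CPM and the lambda segments, and, of each list of immunoglobulin and B-lineage genes, the 3 genes with the smallest p, of which 1 is not reported here. Alternatives used edgeR 4.0.16, DESeq2 1.42.0 and limma-voom on the recovered reads, other scalings, filters and pseudocounts, and left out pseudogenes or each library. Thinning gives the number of segments expected in a random draw of V reads, computed exactly. Scripts ran in R 4.3.3 and in Python 3.11.15 with scipy 1.17.1, numpy 2.4.6 and pandas 2.3.3.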

Additional observations from a re-analysis of the deposited data

How the results depend on the processing

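Iglv1, the 1 V segment tested in 14 of 16 alternatives (edgeR, DESeq2, limma-voom, 3 scalings, 2 pseudocounts and each library left out), was called in none. The other 2 tested 105 segments without a filter and 6 with 3 reads in 3 libraries, and called 0, with 5 and 1 at an unadjusted p under 0.05. In the limma test as reported, 0 of 1 did. The higher V total kept its direction under its 12 alternatives (log2 difference 0.31 to 0.47 leaving out 1 library and 0.37 to 0.49 otherwise), and so did the Ighv total (0.37 to 0.59 and 0.34 to 0.58). Leaving out Iglv1, Ighv3-6 and dividing the locus into sets were chosen after seeing the data.

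Small differences changed sign. Leaving out 1 library gave, for PEGPH20 minus vehicle, -0.11 to 0.48 for the Iglv total (log2), -0.10 to 0.30 for Igkv reads per 1000 Igkc reads, -7.45 to 2.79 percentage points for the share of the 5 leading segments, -10.4 to 0.56 for the leading share, -0.69 to 3.87 for the inverse Simpson index and -12.9 to 5.46 for the lambda share. Without PEGPH20 replicate 5 the ratio to Igkc was -0.10, the 5 leading segments 2.79, the index -0.69 and the lambda share 5.46. Without vehicle replicate 3 the 5 leading segments gave 1.08, the leading share 0.56 and the lambda share 1.34. The Iglv total was -0.07 without vehicle replicate 1 and -0.11 without PEGPH20 replicate 6. Within Ighv the 5 leading segments gave 1.11, the leading share 4.83 and the index -0.93. The causes were not tested. The difference of 9 in segments detected became 1.12 after thinning to equal V reads and 3.67 and 1.67 for segments with at least 2 and 3 reads. Counts of calls over all genes ran from 1 to 339 leaving out 1 library, and DESeq2 gave 277, limma-voom 18 and limma without a filter 29, against 9. With TMM scaling 4 were higher and 5 lower, against 3 and 6. No paired analysis was possible because the groups share no replicate number. With 81 to 162 V reads a library, 1 of the 105 segments passed the filter on low values, and the others have no limma test as reported.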
